A study of Mus musculus with 7 samples.

Results

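The 8 genes described here are markers that cortical neurons switch on after they leave the cell cycle. *Tubb3*, *Map2*, *Mapt*, *Stmn2* and *Gap43* build or regulate the cytoskeleton, and *Rbfox3*, *Elavl3* and *Elavl4* encode RNA-binding proteins. The 8 genes were chosen by symbol, as a set of pan-neuronal markers, from a count table of 38124 Ensembl genes. All 8 were found in it and passed the filter on low counts. The libraries were made from cells with strong RFP fluorescence sorted at E15.5 from the neocortex of mouse embryos, 48 hr after in utero electroporation at E13.5. All embryos were heterozygous for *Tis21*-CreERT2, an allele in which CreERT2 replaces exon 1 of *Tis21* (also called *Btg2*), and tamoxifen was given to all mothers. The control group (3 libraries, replicates 1, 2 and 4) received a plasmid in which the pCAGGS promoter drives a floxed, membrane-targeted GFP, followed by nuclear RFP. The other group (4 libraries, replicates 1 to 4) received the corresponding plasmid for conditional Sox9 expression, in which excision of the same cassette by Cre also turns on Sox9. For a sort, cortices from the embryos of more than 1 mother were pooled (per the methods), and a library is therefore a pool and not an animal. Recombination takes place only where the *Tis21* locus is active, which in this tissue is in progenitors that are about to produce basal progenitors or neurons, and RFP can be carried into the neurons that such cells generate.

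A newborn neuron assembles stable microtubules as it grows an axon and dendrites. *Tubb3* encodes the neuronal beta-tubulin of these microtubules, *Map2* and *Mapt* (tau) bind along them, *Stmn2* binds free tubulin in the growth cone, and *Gap43* is a membrane protein of the growth cone. Neurons also exchange the RNA-binding proteins of progenitors for neuronal ones, among them the HuC and HuD proteins encoded by *Elavl3* and *Elavl4*, which bind AU-rich sequences in transcripts, and the splicing factor NeuN encoded by *Rbfox3*. Per the paper, NeuN protein marks mature neurons and not those still maturing.

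Total gene counts ran from 4429704 to 12907778 per library and were at least 10465562 in each control, and the shallowest library was replicate 4 of the Sox9 group. *Sox9* itself was not higher in the libraries with the Sox9 label, with 63.9 ± 27.5 CPM (counts per 1e6, scaled with TMM; SD, n = 3) in control and 40.0 ± 8.33 CPM (SD, n = 4) in the other group, and its log2 fold change was negative under every setting tried (-0.99 to -0.34). In the paper, qPCR on such sorted cells found *Sox9* mRNA highest in the strongly RFP-positive cells given the Sox9 plasmid. It found almost none in control cells. The counts do not show that difference, and the reason was not tested. Counts per gene do not separate the plasmid's *Sox9* from the endogenous gene, and the groups are named by their labels. A gene was called higher or lower at an adjusted p under 0.01 in edgeR's quasi-likelihood test (two-sided, Benjamini-Hochberg over 16522 genes). Of the 14267 protein-coding genes tested, that call was made for 9.96% as higher with the Sox9 label and for 3.88% as lower, 13.8% in all. The split between directions differed between methods: edgeR with TMM called 1421 genes higher and 553 lower, edgeR with the size factors of DESeq2 called 1427 and 619, cyclic loess with limma called 316 and 252, DESeq2 called 1509 and 1245, and limma on FPKM + 0.1 called 1041 and 101. The labels name no batch or date.

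None of the 8 markers was called higher or lower, where 13.8% of all protein-coding genes tested were. The median of their log2 fold changes was -0.02, beside -0.06 over all protein-coding genes tested, and after cyclic loess these medians were 0.22 and -0.01. At an unadjusted p under 0.05, 2 of the 8 passed (*Elavl3* and *Elavl4*, both lower), where 42.4% of all protein-coding genes did. DESeq2 also called 0 of 8 at an adjusted p under 0.01, where it called 16.0% of its protein-coding genes. Expressed as folds, the 95% intervals of the 8 genes, each taken on its own, ran from 0.551 to 1.33 in this fit. They do not cover the differences between processing settings. Markers of dividing progenitors measured in the same libraries did differ, as described further on.

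The levels of the markers differed widely. To compare genes with each other, levels were divided by the exonic length of each gene in GENCODE, giving CPM per kilobase. On this scale *Tubb3* had 3847 ± 468 CPM per kilobase in control (SD, n = 3) and ranked at position 5 of 21173 protein-coding genes. *Gap43* followed at 265 ± 67.5, *Stmn2* at 187 ± 34.3, *Map2* at 90.9 ± 8.61, *Elavl4* at 79.6 ± 4.76, *Mapt* at 63.1 ± 13.6, *Elavl3* at 41.6 ± 11.2 and *Rbfox3* at 6.77 ± 0.850 CPM per kilobase. From *Tubb3* to *Rbfox3* the level fell by a factor of 569. The order of neighbours was the same in 7 of 7 libraries, except that *Map2* was above *Elavl4* in 6 of 7 and *Elavl4* above *Mapt* in 3 of 7, and both of these pairs overlapped in range. On the same scale *Eomes*, a transcription factor that defines intermediate progenitors, stood at 9.03 and *Pax6*, a transcription factor of radial glia, at 5.85 CPM per kilobase in control, above *Rbfox3* or near it and below the other 7 markers.

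*Tubb3* (ENSMUSG00000062380, mm10 chr8:123411424-123422015, forward strand) had 8027, 6283 and 7247 CPM in the control libraries (replicates 1, 2 and 4) and 6016, 7435, 7460 and 6289 CPM in the libraries with the Sox9 label (replicates 1 to 4). The groups overlapped, with control replicate 1 the highest of the 7 libraries and replicate 1 with the Sox9 label the lowest. The log2 fold change was -0.08 (standard error, SE, 0.12, 95% interval -0.34 to 0.18, adjusted p = 0.654), and it was positive, 0.20 and 0.15, after cyclic loess and on FPKM. *Tubb3* rested on 29991 to 83984 counts per library, and the highest library was 1.33 times the lowest in CPM.

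*Map2* (ENSMUSG00000015222, chr1:66175273-66442583, forward strand), which encodes a microtubule-binding protein of dendrites and cell bodies, had 1656, 1391 and 1437 CPM in control and 1313, 1435, 1298 and 1195 CPM in the libraries with the Sox9 label. Of the libraries with the Sox9 label, 3 of 4 lay below the lowest control and the other lay at the level of control replicate 4. For this gene the log2 fold change was -0.19 (SE 0.11, adjusted p = 0.197), and it was 0.09 after cyclic loess. An annotated transcript on the opposite strand, *Gm10558*, lies inside *Map2* and had 40.6 to 78.7 CPM, and since the use of strand in counting is not given in the sources used here, reads of the pair cannot be assigned with certainty.

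*Mapt* (ENSMUSG00000018411, chr11:104231390-104332090, forward strand), whose product tau binds axonal microtubules, had 591, 397 and 437 CPM in control and 499, 475, 603 and 408 CPM in the libraries with the Sox9 label. The ranges of the groups nearly coincided. The log2 fold change was 0.06 (SE 0.15, adjusted p = 0.78). The opposite-strand transcript *Gm11659* within *Mapt* had 1.13 to 4.53 CPM.

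*Stmn2* (ENSMUSG00000027500, chr3:8509360-8561606, forward strand) had 1215, 838.5 and 1094 CPM in control and 1211, 1046, 1210 and 1019 CPM in the libraries with the Sox9 label. All 4 libraries with the Sox9 label lay inside the control range, and control replicate 2 was the lowest of the 7. The log2 fold change was 0.10 (SE 0.13, adjusted p = 0.609).

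*Gap43* (ENSMUSG00000047261, chr16:42248442-42340651, reverse strand) had 521, 335 and 353 CPM in control and 473, 440, 413 and 413 CPM in the libraries with the Sox9 label. The 4 libraries with the Sox9 label were above the control mean of 403 ± 103 CPM (SD, n = 3) but below control replicate 1. For this gene the log2 fold change was 0.11 (SE 0.14, adjusted p = 0.596). The floxed GFP of both plasmids is tethered to the membrane by a GAP43 sequence, and counts per gene do not separate such transcripts from those of the endogenous gene; their part in these values was not tested.

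*Rbfox3* (ENSMUSG00000025576, chr11:118489762-118911597, reverse strand) had 40.1, 43.9 and 34.1 CPM in control and 42.4, 39.6, 46.4 and 33.8 CPM in the libraries with the Sox9 label. It was the least abundant of the 8 and rested on 161 to 505 counts per library. The group means were 39.4 ± 4.95 CPM (SD, n = 3) and 40.6 ± 5.31 CPM (SD, n = 4), and the log2 fold change was 0.05 (SE 0.16, 95% interval -0.29 to 0.38, adjusted p = 0.847).

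*Elavl3* (ENSMUSG00000003410, chr9:22015005-22052023, reverse strand) had 343, 318 and 199 CPM in control and 192, 232, 217 and 169 CPM in the libraries with the Sox9 label. Control replicates 1 and 2 were above every library with the Sox9 label, whereas control replicate 4 lay among them. The log2 fold change was -0.50 (SE 0.17, 95% interval -0.86 to -0.15, adjusted p = 0.0334), below 0.05, as for 12.2% of protein-coding genes in this direction, but not below 0.01. Without control replicate 4 it was -0.69 (adjusted p = 0.00594, in a fit that called 1.74% of genes lower), so that this 1 library decided the call. With no filter on low counts *Elavl3* was also called lower, as were 6.97% of genes, and over the 19 settings tried the adjusted p ran from 4.95e-04 to 0.418. In bulk libraries such as these, fewer cells of a type and less RNA per cell cannot be told apart.

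*Elavl4* (ENSMUSG00000028546, chr4:110203722-110351909, reverse strand) had 411, 458 and 417 CPM in control and 352, 405, 340 and 283 CPM in the libraries with the Sox9 label. It was the only one of the 8 whose groups did not overlap, and all 4 libraries with the Sox9 label were below the lowest control, as for 18.4% of all protein-coding genes tested. The log2 fold change was -0.31 (SE 0.12, 95% interval -0.58 to -0.05, adjusted p = 0.0638). Over the settings tried, the log2 fold change stayed negative for *Elavl3* (-0.69 to -0.22) and for *Elavl4* (-0.40 to -0.06).

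**Figure D1:**
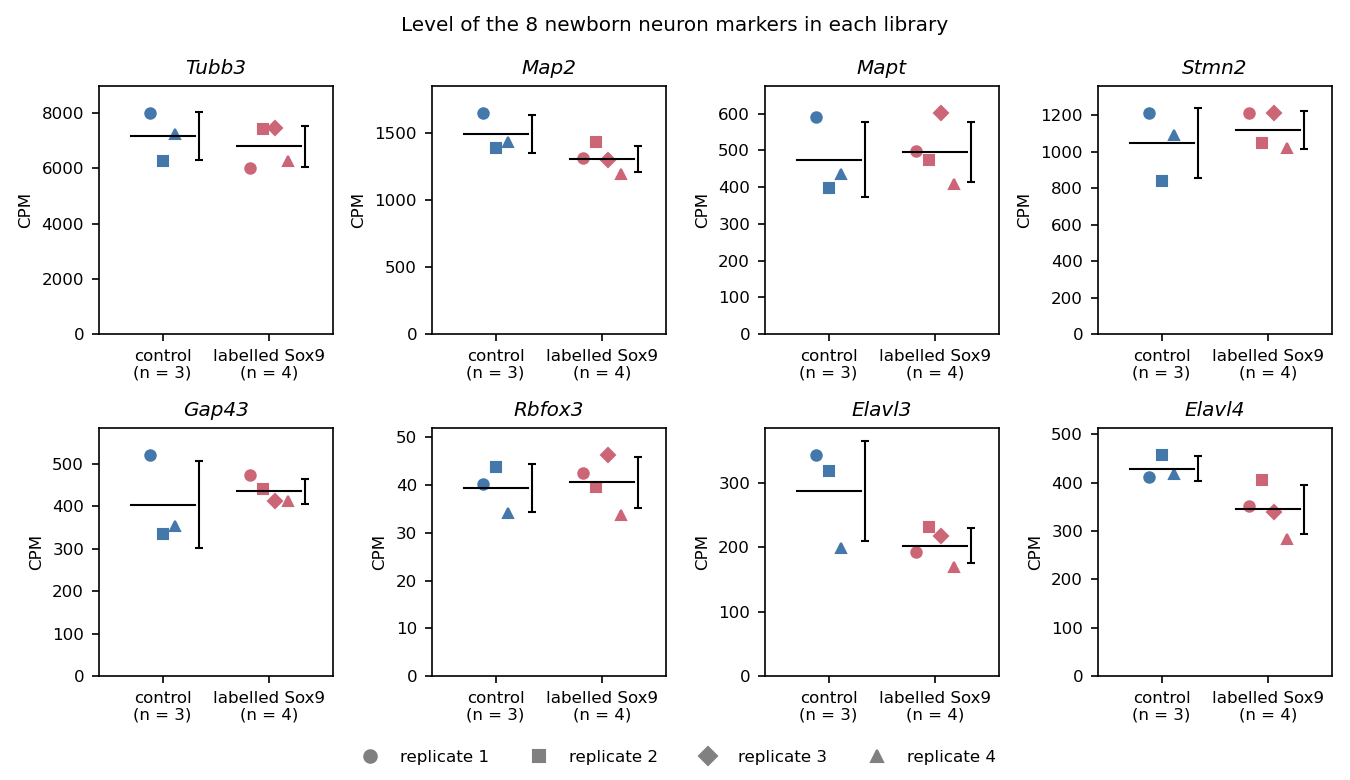
Level of each marker in CPM (axis from 0) in the 3 control libraries (blue) and the 4 libraries with the Sox9 label (red), with the group mean as a horizontal line, its SD as an error bar and the replicate number as the symbol. The groups overlap for every gene except *Elavl4*, and control replicate 4 of *Elavl3* (199 CPM) lies among the libraries with the Sox9 label.

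*Elavl3* and *Elavl4* were the markers with the lowest fold changes, and the bases before their transcription starts are shown for that reason. RefSeq promoter sequences (GRCm38.p6, 250 bases up to a start) were found for 5 of the 8 markers. Windows that held an annotated exon are not printed. They were searched on both strands for CAGATG and CAGCTG, E-box sequences bound by proneural bHLH factors, and for AACAAT, a sequence bound by SOX proteins. In the sequences below, given 5′ to 3′ on the strand of the gene, capitals mark a match: chr9:22052024-22052273 before a start of *Elavl3* and chr4:110287528-110287777 before 1 of the 4 starts of *Elavl4*.
Elavl3: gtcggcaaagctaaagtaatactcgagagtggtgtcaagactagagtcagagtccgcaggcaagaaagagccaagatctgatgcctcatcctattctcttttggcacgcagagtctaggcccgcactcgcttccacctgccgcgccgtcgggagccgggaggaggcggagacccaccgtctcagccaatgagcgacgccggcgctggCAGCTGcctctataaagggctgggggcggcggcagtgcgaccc
Elavl4: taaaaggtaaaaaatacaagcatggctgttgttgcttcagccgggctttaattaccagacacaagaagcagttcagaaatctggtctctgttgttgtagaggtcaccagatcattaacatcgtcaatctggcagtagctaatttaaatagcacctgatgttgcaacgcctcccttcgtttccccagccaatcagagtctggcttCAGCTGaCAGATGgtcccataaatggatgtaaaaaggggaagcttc
The *Elavl3* window held CAGCTG, beginning at position -43 from the start, and the *Elavl4* window held CAGCTG at position -46 and CAGATG at position -39. Of the other *Elavl4* windows, the one that overlaps this window held the same 2 matches, another held CAGATG (read as CATCTG) at position -101, and the last held AACAAT (read as ATTGTT) at position -146. The windows of *Tubb3*, *Map2* and *Rbfox3* held none of the 3. Of all 32851 promoter windows of this length, 14.4% held CAGATG, 4271 windows held CAGCTG, 9.42% held AACAAT and 32.8% held at least one, and a match does not show that a factor binds.

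The spread among libraries of 1 group was shared by several markers. Control replicate 1 had the highest CPM of the 7 libraries for 5 of the 8 markers, and replicate 4 of the Sox9 group the lowest for 4. Summed over the 8 genes, the level was 12800, 10060 and 11220 CPM in control and 10100, 11510, 11590 and 9808 CPM in the libraries with the Sox9 label. The groups overlapped, and control replicate 1 lay above every other library. As a share of all counts, without scaling, the markers took 1.16%, 0.897% and 1.05% in control and 1.10%, 1.16%, 1.27% and 1.06% in the libraries with the Sox9 label.

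The 2 kinds of marker were also set against each other within each library. The mean log2 CPM of the 3 genes for RNA-binding proteins minus that of the 5 cytoskeletal genes was -2.95, -2.42 and -2.98 in control and -3.05, -2.93, -3.04 and -3.16 in the libraries with the Sox9 label. Control replicate 2 stood apart from the other 6, and the groups overlapped.

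Apart from *Gap43*, the markers were also read beside the other genes of their families, some of which are used by progenitors or by all cells. *Tubb5*, a beta-tubulin that is also abundant in dividing cells, had a log2 fold change of -0.41 (SE 0.11, adjusted p = 0.0135), at 8666, 8739 and 8250 CPM in control and 5809, 7404, 6587 and 5897 CPM in the libraries with the Sox9 label. All 4 of the latter lay below the lowest control, as for 18.4% of all protein-coding genes tested. *Tubb4b*, a broadly expressed beta-tubulin, had a log2 fold change of -0.35 (adjusted p = 0.0563), *Tubb2a* of -0.14, *Tubb4a* of -0.06 and *Tubb2b* of 0.17. *Tubb6* had 0.210 to 5.65 CPM and a log2 fold change of -0.76 (SE 0.67), and *Tubb1*, with at most 7 counts in a library, was not tested. Coding sequences of tubulins are alike, and how reads that fit several of them were counted is not given in the sources used here.

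In the stathmin family, *Stmn1*, which is also expressed in dividing progenitors, had a log2 fold change of -0.23 (adjusted p = 0.0956), while the neuronal *Stmn3* had 0.17 and *Stmn4* 0.22. In the Elavl family, *Elavl1*, which encodes the ubiquitous HuR, had -0.38 (adjusted p = 0.0598) and *Elavl2*, which encodes HuB, 0.00 (adjusted p = 0.994). In the Rbfox family, *Rbfox1* had -0.48 (adjusted p = 0.0321), with 282, 236 and 257 CPM in control and 148, 209, 235 and 148 CPM in the libraries with the Sox9 label, and *Rbfox2* had -0.03. None of these family members was called at an adjusted p under 0.01.

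**Figure D2:**
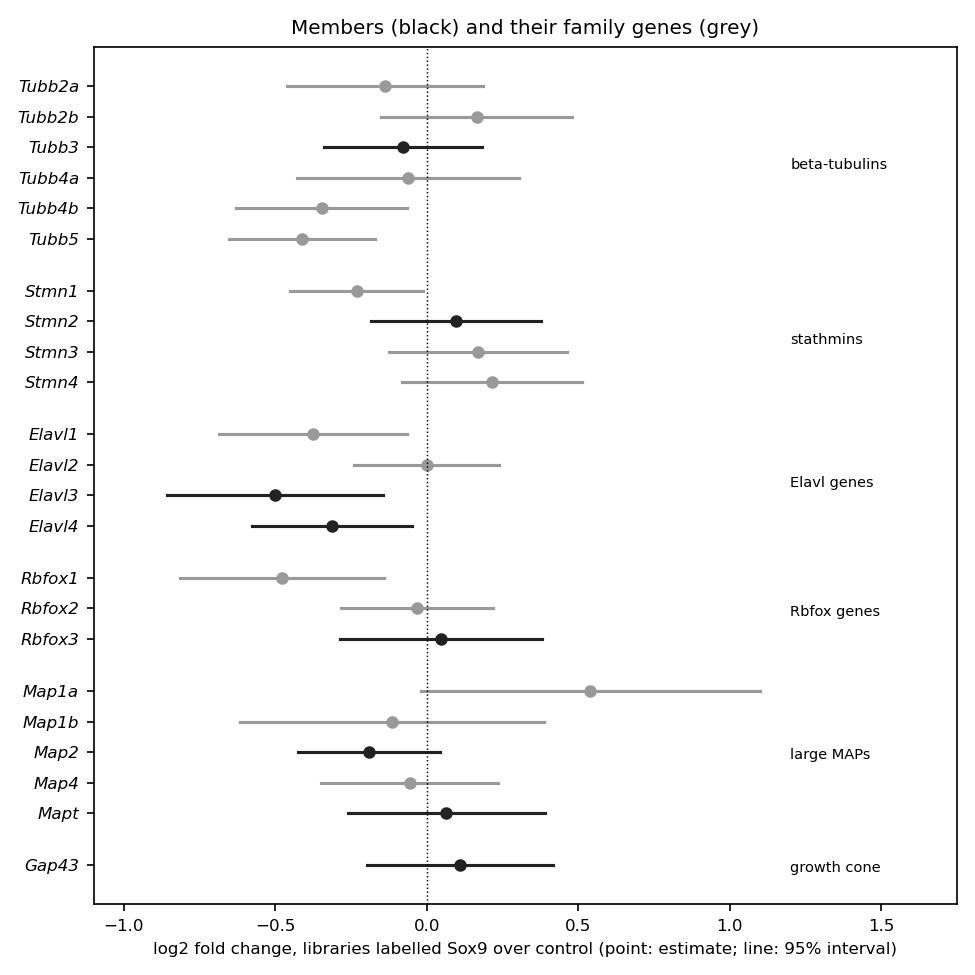
Log2 fold change of the libraries with the Sox9 label over control (points) with its 95% interval (lines) for the 8 markers (black) and the tested genes of their families (grey), grouped by family; *Tubb6*, whose interval is far wider, is not drawn. The intervals of 6 of the 8 markers include 0, and those of *Elavl3* and *Elavl4* lie below it.

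A share within a family does not depend on how libraries are scaled to each other. *Tubb3* made up 53.8%, 49.7% and 53.1% of the beta-tubulin level per kilobase in control and 54.5%, 55.3%, 56.3% and 57.4% in the libraries with the Sox9 label. All 4 of the latter were above the highest control. The means were 52.2% ± 2.19 (SD, n = 3) and 55.9% ± 1.24 (SD, n = 4), a difference of 3.71 percentage points, with p = 0.0286 in an exact permutation test (two-sided), the smallest that 3 against 4 libraries allow. Adjusted over the 7 shares tested the p was 0.2. The difference was 4.19 percentage points with no division by length and 2.94 on FPKM. It was 4.51 without control replicate 1 and 2.46 without control replicate 2. The level of *Tubb3* itself was not higher, with a mean of 3847 CPM per kilobase in control and 3640 with the Sox9 label. For *Tubb5* these means were 2570 and 1931.

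*Rbfox3* made up 6.63%, 8.73% and 6.34% of the Rbfox level in control and 10.5%, 8.44%, 8.74% and 8.60% in the libraries with the Sox9 label (exact permutation test, p = 0.0857, adjusted p = 0.3), and control replicate 2 lay among the libraries with the Sox9 label. The mean share of *Stmn2* among stathmins was 12.1% and 13.4%, that of *Elavl3* among Elavl genes 23.4% ± 5.09 (SD, n = 3) and 3.44 percentage points less, and that of *Elavl4* 45.3% and 43.5%, in control and in the libraries with the Sox9 label. For *Elavl3* the difference was -1.36 percentage points without control replicate 1 and -6.27 without control replicate 4. Among *Map1a*, *Map1b*, *Map2*, *Map4* and *Mapt*, *Map2* took 13.6% and 12.4% and *Mapt* 9.25% and 10.2%. *Map1b*, which had the highest level per kilobase of these 5 genes, ranged from 5359 to 12650 CPM among the controls. With 7 shares tested, a single share whose groups do not overlap can reach an adjusted p of 0.2 at best, so that the adjusted values say nothing about whether single shares differ.

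**Figure D3:**
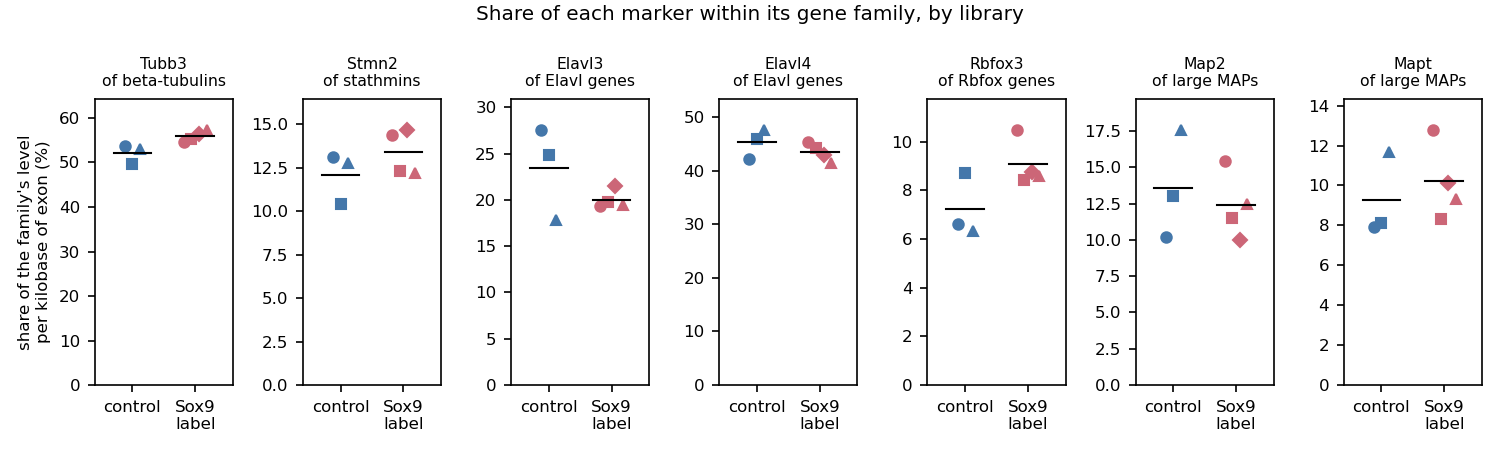
Share of each marker in the summed level per kilobase of its family (percent, axes from 0) in the control libraries (blue) and the libraries with the Sox9 label (red), with group means as lines and the replicate number as the symbol as in the plot of levels (circle 1, square 2, diamond 3, triangle 4). Only the share of *Tubb3* among beta-tubulins, 52.2% and 55.9% on average, does not overlap between the groups.

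The deposited FPKM values give another picture of the order of levels, because of the length they were divided by. For 91.8% of 6894 genes with enough counts, the length that links counts to FPKM was within 2% of the whole span of the gene, introns included, and for 1.80% within 2% of the exonic length. *Rbfox3* spans 421836 bases, 72.5 times its exons, and its FPKM was 0.076 to 0.12 although it had 161 or more counts in every library. *Gap43* spans 60.5 times its exons and had an FPKM of 3.24 to 5.60 beside 4.92 to 8.38 for *Elavl3*, the lower of the 2 within each of the 7 libraries, although it was above *Elavl3* per kilobase of exon. FPKM were therefore not used to order these genes by level.

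The genes of the same pathways were taken from lists of tubulins, microtubule-associated and neurofilament proteins, growth cone proteins, neuronal RNA-binding proteins and presynaptic proteins. Leaving out the 8 markers, 140 of their genes were tested, of which 3 were called higher and 5 lower, beside 9.96% and 3.88% of all protein-coding genes. Their median log2 fold change was -0.03, and 0.15 after cyclic loess. The medians of the microtubule-associated list (-0.06 to 0.16) and of the growth cone list (-0.04 to 0.15) likewise changed sign with cyclic loess. Of 16 tubulin genes, 2 were called lower: *Tubg1*, which encodes the gamma-tubulin that nucleates microtubules, with a log2 fold change of -0.55 (adjusted p = 0.00282), and *Tuba1b*, an alpha-tubulin of many cell types, with -0.62 (adjusted p = 0.00442). Neither was called with cyclic loess, with at least 10 counts in every library, on FPKM or under either replicate block (the replicate number of the title or of the description as a term of the fit), nor without Sox9 replicate 1 or 4 or control replicate 2. Of 41 microtubule-associated and neurofilament genes, 2 were called lower: *Vim*, the intermediate filament of radial glia (-1.17, adjusted p = 3.34e-04), and *Ank2*, which links the membrane to the spectrin cytoskeleton (-0.52, adjusted p = 0.00611). The count for this list was 4 with no filter, 0 on FPKM and 1 with cyclic loess, with at least 10 counts in every library, under either replicate block and with any library but Sox9 replicate 3 left out. *Nes*, another progenitor intermediate filament in this list, had -0.71 (adjusted p = 0.0512).

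Of 35 growth cone and axon growth genes, *Dpysl4*, of the collapsin response mediator family, was called lower (-0.89, adjusted p = 0.00402), but not with cyclic loess, with at least 10 counts in every library, on FPKM, under either replicate block, or without Sox9 replicate 1, 3 or 4 or control replicate 1. The adhesion molecule *Chl1* had 0.56 (adjusted p = 0.0128) with all 4 libraries with the Sox9 label above the highest control, as for 19.8% of all protein-coding genes tested, and *Lmo7* had 0.84 (adjusted p = 0.0289). Of 30 neuronal RNA-binding genes, *Fxr2*, a relative of the fragile X protein, was called higher (0.60, adjusted p = 0.00853), but not with DESeq2 or its size factors or under either replicate block, and with single libraries left out this list held a higher call only without Sox9 replicate 3. *Srrm3*, which promotes neuronal microexons, had 1.00 (adjusted p = 0.0159) at 4.37 to 11.5 CPM. *Ptbp2*, the neuronal polypyrimidine tract-binding protein, had -0.38 (adjusted p = 0.0238).

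Of 26 presynaptic genes, 2 were called higher and none lower, and 1 was called higher under either replicate block, without Sox9 replicate 1 or 2 and without control replicate 2 or 4. *Chgb*, a granin of secretory vesicles, had 48.6, 32.0 and 39.4 CPM in control and 88.9, 91.4, 70.2 and 68.6 CPM in the libraries with the Sox9 label (log2 fold change 1.00, adjusted p = 0.00102). *Cplx2*, a complexin that binds the vesicle fusion machinery, had a log2 fold change of 0.65 (adjusted p = 0.00554). The median of the presynaptic list was 0.11, and 0.29 after cyclic loess. Of 15 RNA-binding genes of progenitors or of all cells, the splicing regulators *Ptbp1* (-0.68, adjusted p = 0.00519) and *Hnrnpa1* (-0.45, adjusted p = 0.00779) were called lower, a count that was 0 with cyclic loess, with at least 10 counts in every library and on FPKM, 6 with DESeq2 and 7 with no filter. It was also 0 under the block by title number, without Sox9 replicate 1 or 4 and without control replicate 2 or 4. The count was 1 under the block by description number, after non-coding genes were dropped and without Sox9 replicate 3. It was 3 without Sox9 replicate 2. *Lin28b*, an RNA-binding protein of early progenitors, was called higher, but on 1 to 3 counts per control library and 9 to 16 per library with the Sox9 label, and it was not called with DESeq2, with cyclic loess, with at least 10 counts in every library, on FPKM, under either replicate block, or with any library but Sox9 replicate 2 left out.

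The same test was read for lists of progenitor genes and neuronal transcription factors. Of 20 cell cycle genes, 18 were called lower, with a median log2 fold change of -1.80. Their summed level was 1198 to 2174 CPM in control and 420 to 491 CPM in the libraries with the Sox9 label, and the count was 12 on FPKM + 0.1 and 9 on FPKM + 1. Of 14 radial glia genes tested, 8 were called lower (median -1.22, summed level 1053 to 1888 CPM against 585 to 745 CPM), and *Pax6* was among them (-1.15, adjusted p = 0.00314). On FPKM + 0.1, 2 were called, and on FPKM + 1, 1. Adding 1 makes fold changes smaller where FPKM are low. *Pax6* had 0.867 to 2.87 FPKM and the cell cycle gene *Mki67* 0.386 to 1.45, whereas the radial glia gene *Aldoc* had 6.71 to 56.4. How far this lowered the counts of calls was not tested. Of 12 intermediate progenitor genes, *Eomes* (-2.25, adjusted p = 4.87e-05), *Mfap4* (-1.17) and *Btg2* (-0.81) were called lower, a count that was 2 with cyclic loess, on FPKM + 0.1 and under the block by title number, and 1 on FPKM + 1. *Btg2* is the gene that carries the CreERT2 allele in all of these embryos.

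Of 20 transcription factors of postmitotic neurons, 3 were called lower: *Pou3f2* (-0.88, adjusted p = 0.00104) and *Cux2* (-0.83, adjusted p = 0.00336), which mark upper-layer neurons and their progenitors, and *Mef2c* (-0.74, adjusted p = 0.00462), which acts in maturing neurons. The count was 0 with cyclic loess (list median -0.03, against -0.22), 0 on FPKM + 0.1 and on FPKM + 1, 1 with at least 10 counts in every library and 1 without Sox9 replicate 4. *Neurod6*, of projection neurons, had -0.36 (adjusted p = 0.0206) and *Dcx*, a microtubule-associated protein of migrating neurons, -0.25 (adjusted p = 0.107). Whether these lists differ from the 8 markers was not tested. Among the controls, replicate 1 had the lowest summed level of both cell cycle and radial glia genes and the highest of the 8 markers, and without it the log2 fold change of *Gap43* was 0.32 (adjusted p = 0.0794), that of *Mapt* 0.23, that of *Stmn2* 0.20, that of *Rbfox3* 0.04, that of *Tubb3* -0.01, that of *Map2* -0.13, that of *Elavl3* -0.37 and that of *Elavl4* -0.36, with 0 of 8 markers called.

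**Figure D4:**
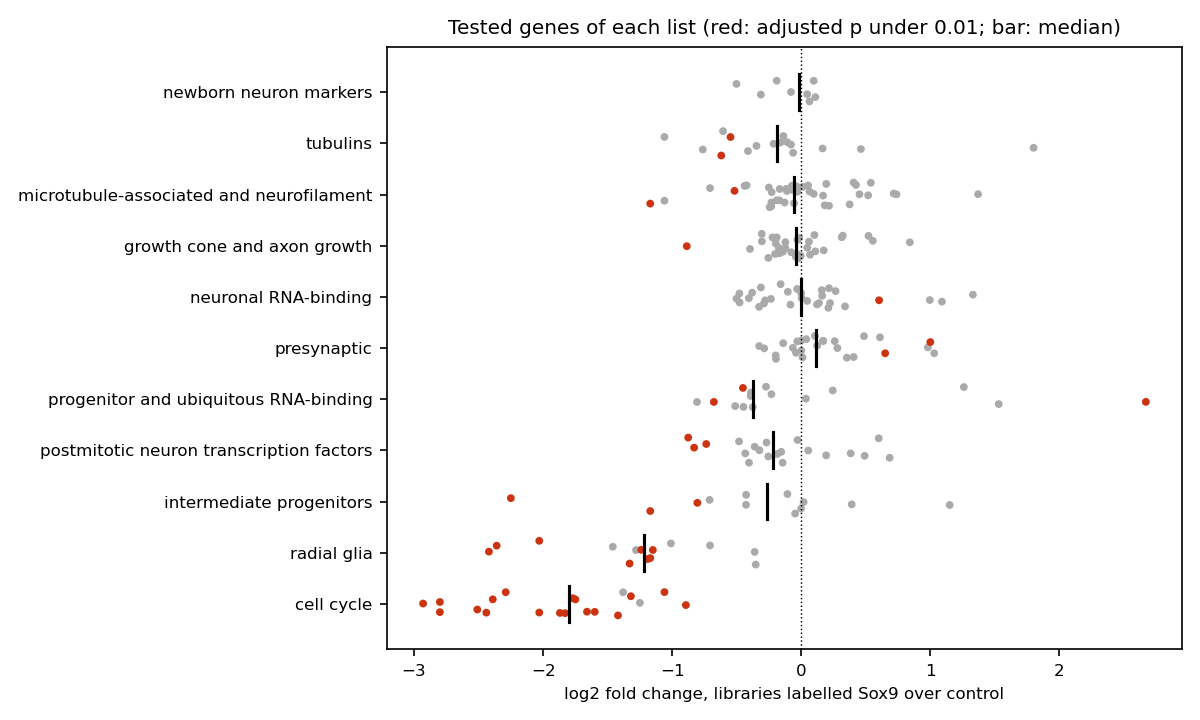
Log2 fold change of the libraries with the Sox9 label over control for the tested genes of each list (points, spread vertically only for legibility), in red where the adjusted p was under 0.01, with the list's median as a bar; a marker also appears in the list it belongs to. The 8 markers hold no red point around a median of -0.02, where 13.8% of all protein-coding genes tested were called. Of 20 cell cycle genes, 18 are red and lie below 0. Whether the lists differ was not tested.

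Level affects what these medians are compared with. Of protein-coding genes, 666 had an average log2 CPM of 8 or more. Among them the median log2 fold change was -0.28, and 8.11% were called (2 higher and 52 lower). Of the 8 markers, 6 stood at or above this average level, and the exceptions were *Rbfox3* and *Elavl3*. The log2 fold changes of 6 of the 8 lay above -0.28, and those of *Elavl3* and *Elavl4* below it.

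Markers of other cell types were present at low levels, and their counts of calls stand beside the 9.96% of all protein-coding genes called higher. Of oligodendrocyte precursor genes, 6 of 7 tested were called higher (summed level 4.87 to 6.61 CPM in control, 28.3 to 53.3 CPM in the libraries with the Sox9 label), and of choroid plexus genes 6 of 7 (6.52 to 9.08 and 30.0 to 43.3 CPM). Of endothelial genes, 2 of 8 tested were called higher (6.12 to 15.6 and 20.1 to 54.3 CPM), of mural and meningeal genes 2 of 9 (11.1 to 13.1 CPM in control and at most 40.8 CPM with the Sox9 label), of microglial genes 1 of 10 (16.1 to 45.3 and 20.3 to 80.5 CPM) and of erythroid genes 1 of 6 (2.39 to 25.2 CPM in control and at least 16.3 CPM with the Sox9 label). Of astrocyte genes, 3 of 8 were called higher and 2 lower (122 to 158 and 82.1 to 108 CPM). Neurons of other classes carry the pan-neuronal markers too: of interneuron genes 1 of 7 tested was called higher (11.5 to 15.0 and 20.8 to 41.6 CPM), and of Cajal-Retzius genes 1 of 4, *Reln* (log2 fold change 1.32, adjusted p = 0.00541; list at least 9.04 CPM in control and 15.1 to 25.9 CPM with the Sox9 label). No gene in the table from these lists was at 0 in every library, and *Cldn5*, which defines endothelium, was at 0 in 3 of the 4 libraries with the Sox9 label. After cyclic loess the list medians changed sign for interneurons (0.90 to -0.54), Cajal-Retzius cells (0.76 to -0.70), microglia (0.35 to -0.32) and astrocytes (0.27 to -0.39). The part of such cells in the values of the 8 markers was not tested.

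For each marker, the coding genes with the most similar profile over the 7 libraries were found by the root-mean-square difference of log2 CPM, each centred on its own mean, among 5025 genes with an average log2 CPM of at least 5. These were *Sod2* (0.0345) and *Actg1* (0.0467) for *Tubb3*, *Rufy3* (0.0368) and *Gabarap* (0.0416) for *Map2*, *Anapc7* (0.0532) and *Svop* (0.0621) for *Mapt*, and *Lypla2* (0.0483) and *Flot1* (0.0736) for *Stmn2*. For *Gap43* they were *Abr* (0.0490) and *Creld1* (0.0632), for *Rbfox3* *Clec16a* (0.0390) and *Prdm2* (0.0748), and for *Elavl4* *Atrx* (0.0364) and *Sdha* (0.0389). The nearest to *Elavl3* were *Wdfy3* (0.123) and *Hif1an* (0.126), a larger distance than for any other marker. Among the 8 markers the closest pairs were *Tubb3* with *Map2* (0.112) and *Mapt* with *Stmn2* (0.127), and *Elavl3* and *Stmn2* were the farthest apart (0.429). Many other genes were nearer than these partners. By nearness among the 5025 genes, *Map2* ranked 219 for *Tubb3* and *Tubb3* 486 for *Map2*. *Stmn2* ranked 34 for *Mapt* and *Mapt* 62 for *Stmn2*. All of these profiles come from the same 7 libraries and share their depth and scaling.

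**Figure D5:**
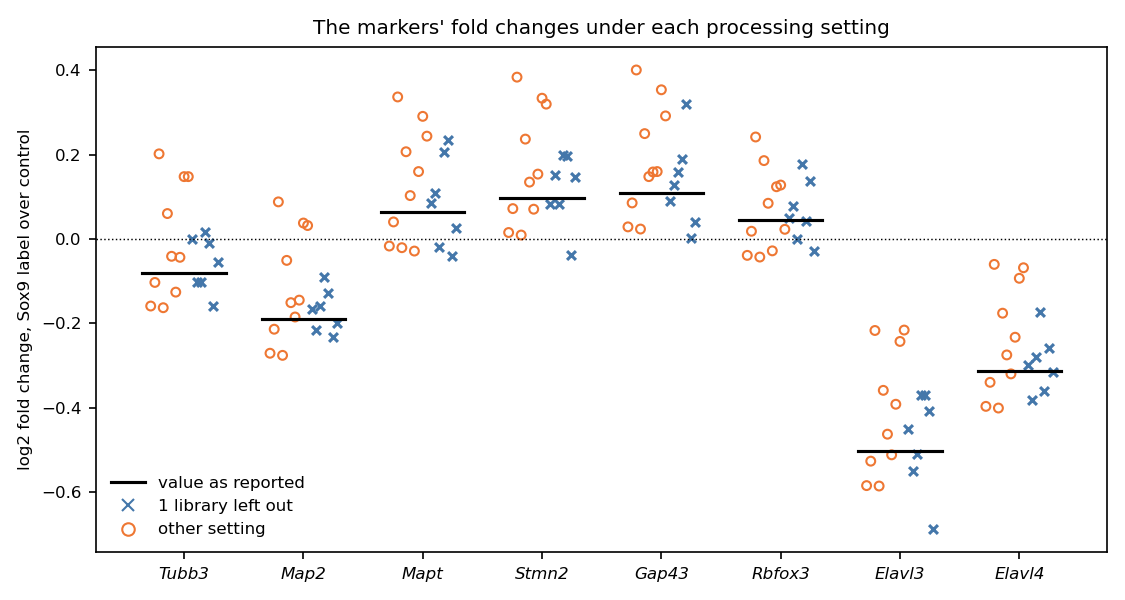
Log2 fold change of each marker under the reported setting (bar), with 1 library left out (blue crosses) and under the other processing settings (orange circles). The values of *Elavl3* (-0.69 to -0.22) and *Elavl4* (-0.40 to -0.06) are below 0 throughout and those of *Gap43* (0.00 to 0.40) above it, whereas the other 5 markers have values on both sides of 0.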

How the data were processed

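RNA-Seq of 7 libraries of High RFP cells was used, 3 control and 4 labelled Sox9 in the sample titles. The authors primed reverse transcription with poly-dT, amplified the cDNA without molecular identifiers, trimmed the reads and aligned them to mm10 with STAR 2.5.2b (per the submitters' processing notes). The values were deposited by the authors: unnormalized read counts for each Ensembl gene, and FPKM, the latter scaled by library and by a length found here to be the gene span. The counting program and its use of strand are not given in the sources used here. Total counts were 4429704 to 12907778 per library. Nothing in the labels ties a library to single animals, so p-values measure the spread between these pools.

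Symbols and exonic lengths came from GENCODE on GRCm38. Counts were tested with edgeR 4.0.16 (TMM, default filter, quasi-likelihood, two-sided, no covariate) in R 4.3.3, with p-values adjusted over 16522 genes, and tested on simulated data first. Shares within families were compared by exact permutation. Alternatives were DESeq2 1.42.0 and its size factors, cyclic loess with limma 3.58.1, other filters and thresholds, replicate blocks, FPKM + 0.1 and FPKM + 1 with limma, and leaving out each library. The members and lists were chosen with earlier results of these data known. The text names the 8 markers, *Sox9*, the tested genes of their families, the 3 genes with the smallest p of each related list, the 2 genes nearest in profile to each marker, and defining markers of cell types. The result of 1 such gene is not reported here. *Gm10558*, *Gm11659* and *Map1b* were added after their values were seen.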

Additional observations from a re-analysis of the deposited data

Results flagged for a closer look

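In 3 of the 40 sets of 4 libraries examined, 1 library lay far from the other 3, measured by its gap to the nearest of them as a share of the whole range (Dixon's criterion). Chance alone marks about 1 in 20 such sets. *Elavl1* had 56.6 CPM in replicate 4 of the Sox9 group and 46.1 to 47.5 CPM in the other libraries of that group. The share of *Rbfox3* among Rbfox genes was 10.5% in replicate 1 of the Sox9 group and 8.44% to 8.74% in the others. The summed level of the intermediate progenitor list was 1410 CPM in replicate 2 of the Sox9 group and 1140 to 1180 CPM in the others.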

How the results depend on the processing

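Under no setting was a marker called higher. A marker was called lower (1 of 8, *Elavl3* each time) with no filter on low counts (adjusted p = 4.95e-04), at a threshold of 0.05 and without control replicate 4, so that the count was 0 to 1 when single libraries were left out. Of the related neuronal genes, the 3 called higher became 5 with no filter and 10 at the threshold of 0.05, and 1 to 3 when single libraries were left out (1 without Sox9 replicate 1, without Sox9 replicate 2 or without control replicate 4). The 5 called lower became 8 with DESeq2, 11 with no filter, 9 at the threshold of 0.05, 1 with cyclic loess, 1 with at least 10 counts in every library, 0 on FPKM + 0.1 and on FPKM + 1, and 1 to 5 when single libraries were left out (1 without Sox9 replicate 1 or 4, 2 without control replicate 2, 3 without control replicate 1 or 4). Of all protein-coding genes, 9.58% were called higher with no filter and 18.6% at the threshold of 0.05, and 7.24% were called lower with DESeq2, 6.97% with no filter, 12.2% at the threshold of 0.05 and 1.77% with cyclic loess. The cause of these shifts was not tested.

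Log2 fold changes near 0 changed sign. *Tubb3* had 0.20 with cyclic loess, 0.0604 with at least 10 counts in every library, 0.15 on FPKM + 0.1 and on FPKM + 1, and -0.16 to 0.0156 with single libraries left out. *Map2* had 0.0881 with cyclic loess and 0.0379 and 0.0320 on FPKM + 0.1 and FPKM + 1. *Mapt* had -0.0167 with DESeq2, -0.0206 with no filter and -0.0412 to 0.23 with single libraries left out, *Rbfox3* -0.0388 with DESeq2, -0.0428 with no filter and -0.0295 to 0.18, and *Stmn2* -0.0368 to 0.20. The median over the protein-coding genes of each fit was -0.06 as reported (14267 genes) and -0.08 with the size factors of DESeq2 on the same genes. It was 0.09 with DESeq2 (20203 genes), 0.06 with no filter (20205 genes) and 0.11 on FPKM + 0.1 (14241 genes). The share of *Elavl4* differed by 0.227 percentage points on FPKM, and that of *Map2* by -2.96 to 0.761 with single libraries left out.

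The labels do not say whether equal replicate numbers pair libraries of the 2 groups. By title, same-numbered libraries correlated at -0.0356, 0.118 and -0.00485 in their deviations from the group means. Libraries with different numbers correlated at -0.0954 to 0.0776. So few correlations, with deviations centred within each group, cannot decide whether libraries were paired. The third control library is replicate 4 in its title and 3 in its description, and the title numbers are used in the text. With a replicate block by title number, 340 protein-coding genes were called higher and 213 lower, and by description number 842 and 343. Under the block by title numbers 1 related neuronal gene was called higher and 1 lower, and by description numbers 1 lower; 0 of 8 markers were called under either block, where *Mapt* had -0.0286 and *Rbfox3* -0.0281 by title numbers.

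Depth bears on *Rbfox3*, with 161 to 505 counts per library, and the shallowest library had 4.77 counts for each CPM.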
